A study of Mus musculus with 4 samples.

Results

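Ndnf encodes neuron-derived neurotrophic factor, a secreted glycoprotein with fibronectin type III domains. It was 1 of the 300 genes on a Xenium panel applied to mouse retinal ganglion cells (RGCs), the neurons whose axons carry visual signals to the brain. Its puncta, each a single transcript decoded by imaging, are described here across the 45 RGC types named in the deposited table, the 5 retinas and the position of each cell. The gene was chosen with its pattern over types already known, so its levels by type are a description and carry no test. All retinas were from wild-type C57BL/6 mice that had not been manipulated, cut parallel to the retinal surface at 20 µm, so the study has 1 group and every comparison lies within retinas. Neither the age and sex of the mice nor whether the 5 retinas came from separate animals is given, so the p-values rest on the spread among the 5 retinas alone, which may be technical.

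In culture Ndnf protein promotes the survival and migration of neurons and the growth of their neurites, and in the mouse cortex the gene marks neurogliaform interneurons of the outermost layer. RGC types differ in dendritic shape, light response and projection. Intrinsically photosensitive RGCs (ipRGCs, counted here only by the names M1, M2 and M5) carry the photopigment melanopsin, encoded by Opn4, and drive circadian entrainment and the pupil reflex. Alpha RGCs are large cells with fast axons, and ON-OFF direction-selective RGCs (ooDS names) respond to motion in a preferred direction.

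The table held 131379 cells from 41 sections on 8 slides, all of them classed as RGCs and each with at least 100 puncta. Retinas held 13127 to 41048 cells, with medians of 285 to 326 puncta per cell. Retina 5 shares 1 slide with retina 4 and another with retina 3. Along the Y axis of the scaled positions, differences of the panel's genes ran alike in retinas 1, 2 and 4 (Spearman's rho 0.45 to 0.77 over 291 genes, which are not independent replicates), and against or apart from them in retina 5 (rho -0.32 to -0.02) and in retina 3 (rho -0.44 to -0.05). In several types Ndnf in retina 5 ran against the other retinas, so results along Y are given with and without it. Neither axis has a stated anatomical direction.

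Ndnf was more abundant than the median gene of the panel and was concentrated in a few types. In all 123412 of its puncta were counted, which placed it 94th of the 300 genes by mean level. The median gene had 0.440 puncta per cell. Retinas 1 to 5 held 0.985, 0.945, 0.928, 0.871 and 0.953 Ndnf puncta per cell, a mean of 0.937 ± 0.042 (SD, n = 5). The retinas thus lay close together in the overall level. At least 1 punctum was seen in 41552 cells (31.6%), of which 21056 held exactly 1 and 2522 held 10 or more, with 44 in the cell with the most. In the 30 sections with 500 cells or more the level lay between 0.707 and 1.27 puncta per cell, with a median of 0.889.

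The M5 and M2 ipRGCs and the sustained ON alpha cells held the highest levels. Type 22_M5 had 9.14, 8.76, 6.53, 8.94 and 7.98 Ndnf puncta per cell in retinas 1 to 5, a mean of 8.27 ± 1.07 (SD, n = 5 retinas, as for all levels by type). Retina 3 was the lowest of these. Type 31_M2 had 7.86, 7.63, 7.59, 7.66 and 7.14, a mean of 7.57 ± 0.27, and 43_AlphaONS had 7.17, 7.63, 6.80, 6.86 and 7.08, a mean of 7.11 ± 0.33. These 3 types made up 3.93% of the cells and held 32.3% of the Ndnf puncta. Below them came a step with no overlap between retinas, to 07_Novel at 3.71 ± 0.47, 08_Novel at 3.11 ± 0.44 and 40_M1dup at 2.96 ± 0.29. The 6 highest types together held 56.5% of the puncta in 10.6% of the cells.

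A second tier lay between 1 and 2 puncta per cell. It held 42_AlphaOFFS at 1.67 ± 0.23, 12_ooDS_NT at 1.62 ± 0.20, 29_Novel at 1.40 ± 0.17 and 33_M1 at 1.02 ± 0.15. Only these 10 types reached 1 punctum per cell, while 28 of the 45 stayed under 0.5. The median type, 16_ooDS_DV, had 0.424 ± 0.11, and the lowest, 35_Novel, 0.196 ± 0.048. The level in 22_M5 was 19.5 times that of the median type and 42.3 times the lowest.

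Neighbours in this order mostly could not be separated. Of the 44 steps from a type to the next lower type, 7 exceeded the larger SD of the pair, and all of these lay among the 11 highest types. At 3 steps the ranges of the retinas did not overlap, namely below 43_AlphaONS, below 40_M1dup and below 29_Novel. The gap from 22_M5 to 31_M2 was smaller than the SD of 22_M5. From 21_Tbr1_S2, at 0.853 ± 0.14, down to 35_Novel each step was within the spread.

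**Figure D1:**
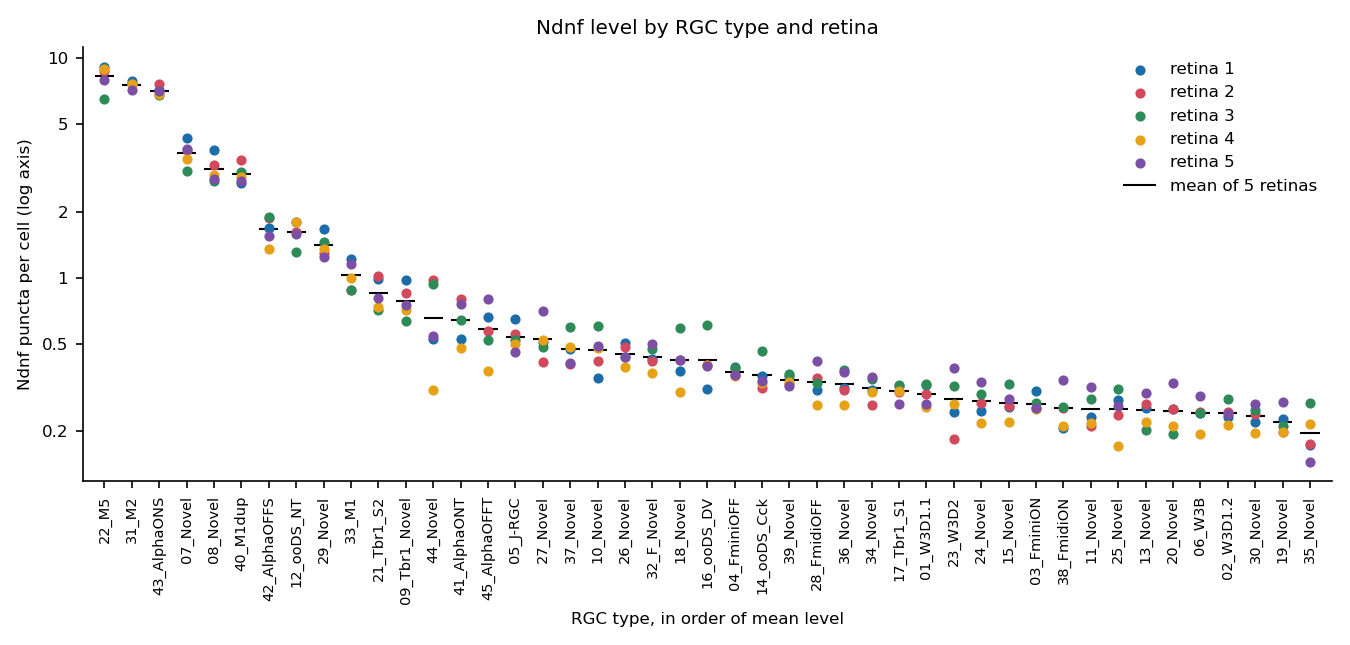
Ndnf puncta per cell on a log axis for the 45 RGC types in order of mean level; each point is 1 retina and each bar the mean of 5 retinas. The 3 types on the left average 7.11 to 8.27 puncta per cell, and the level flattens below 0.5 over the 28 types on the right.

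The order was similar when cell size and depth were taken into account. The 6 highest types remained the 6 highest per 1000 panel puncta, per 1000 units of cell volume, and as the share of cells with Ndnf after each cell was thinned to 100 puncta. On the thinned scale Ndnf was found in 86.1% ± 5.1 of 22_M5 cells, 73.7% ± 5.0 of 31_M2 cells, 72.9% ± 3.9 of 43_AlphaONS cells and 5.25% ± 1.6 of 19_Novel cells. Unthinned, the shares with a punctum were 94.5% ± 2.5, 83.9% ± 4.1, 93.5% ± 2.3 and 17.3% ± 2.8.

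By the families in the type names, the ipRGC names (4 types) averaged 5.36 ± 0.45 Ndnf puncta per cell and the alpha names (4 types) 2.87 ± 0.14. The 3 ooDS types averaged 0.776 ± 0.032, the 3 Tbr1 types 0.695 ± 0.10, the 5 F types 0.332 ± 0.024 and the 4 W3 types 0.269 ± 0.024. Members of a family differed widely. Among the ipRGC names the M1 cells (33_M1), which hold more melanopsin transcript than M2 or M5 cells, had 1.02 puncta per cell against 8.27 in 22_M5. Among the alpha names 41_AlphaONT had 0.641 ± 0.14 and 45_AlphaOFFT 0.586 ± 0.16, against 7.11 in 43_AlphaONS. The families rest on names alone, and 43_AlphaONS also held melanopsin transcript. Its cells with under 4% of puncta from glial and vascular markers had 0.751 ± 0.055 Opn4 puncta per cell. Such cells had 0.936 ± 0.12 in 22_M5 and 0.0740 ± 0.026 in 42_AlphaOFFS. Of the ooDS types, 12_ooDS_NT had 1.62, 16_ooDS_DV 0.424 and 14_ooDS_Cck 0.360 ± 0.059.

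Cells of 1 type also differed among themselves. In 31_M2 the middle cells held 2 to 12 puncta (quartiles) around a median of 6, and the variance was 6.70 ± 0.89 times the mean. In 22_M5 the quartiles were 4 and 12 around a median of 8, and the variance 3.45 ± 0.67 times the mean. In 12_ooDS_NT the median was 0.0, the upper quartile 2 and the 95th percentile 7, with a variance of 4.34 ± 0.47 times the mean. A gene whose counts followed Poisson sampling alone would have a ratio of 1.

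Part of the spread in 31_M2 went with transcripts of other cells. A cell was set apart where 4% or more of its puncta came from the 10 panel markers of Müller glia, astrocytes, microglia, endothelium and pericytes. In 31_M2 this held for 250 of 2002 cells (12.5%). Those cells had 1.10 ± 0.34 Ndnf and 0.162 ± 0.098 Opn4 puncta per cell, while the other 1752 had 8.55 ± 0.095 Ndnf and 2.12 ± 0.063 Opn4. The glutamate transporter gene Slc17a6, which RGCs use, stood at 1.38 ± 0.65 in the set-apart cells and 8.96 ± 0.53 in the others. Without the set-apart cells 31_M2 (8.55) was above 22_M5 (8.29 ± 1.06) in mean level.

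The same split applied to 290 of the 07_Novel cells (8.60%), which had 0.862 ± 0.42 Ndnf puncta per cell against 4.02 ± 0.43 in the others. It took in 9.95% of 33_M1 and 4.66% of 40_M1dup cells. In 44_Novel it took in 157 of 314 cells (50%), with 0.917 ± 0.39 Ndnf puncta per cell against 0.400 ± 0.25 in the rest. In 22_M5, 43_AlphaONS, 08_Novel, 12_ooDS_NT and 42_AlphaOFFS it took in under 1% of cells. Over all RGCs the 1839 set-apart cells had 0.800 ± 0.28 and the rest 0.939 ± 0.041 Ndnf puncta per cell.

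Low levels also went with the cells that lay nearby. In the 35 types outside the 10 highest, cells whose centre was under 10 position units from a cell of the 3 highest types had 0.814, 0.871, 0.755, 0.762 and 0.901 Ndnf puncta per cell in retinas 1 to 5. Cells of the same 35 types at 20 to 50 units had 0.349, 0.329, 0.331, 0.285 and 0.330. The retinas did not overlap. The near cells exceeded the far ones by 0.496 ± 0.059 (SD) in 5 of 5 retinas (exact two-sided sign-flip permutation test, p = 0.0625, the smallest that 5 retinas allow). At 10 to 20 units the level was 0.483 ± 0.049, and at 50 to 100 units 0.328 ± 0.031. These values pool the 35 types. The mix of types at each distance was not matched, and its part was not tested.

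Opn4 followed the same course, with 0.0987 ± 0.027 puncta per cell under 10 units and 0.0227 ± 0.0029 at 20 to 50. Rbpms, a gene of all RGCs, stood at 5.46 ± 0.53 and 7.08 ± 0.55 over the same distances, and the mean total per cell at 272.7 and 329.8 puncta. The 2813 near cells are few beside the 48775 at 20 to 50 units. When cells under 20 units from a cell of the 3 highest types were left out, the levels of the 6 highest types were alike. They were 8.50 in 22_M5, 7.84 in 31_M2, 7.33 in 43_AlphaONS, 3.62 in 07_Novel, 3.08 in 08_Novel and 2.75 in 40_M1dup. Each type outside the 10 highest then had a lower mean, except 35_Novel (0.196 before and 0.197 after). The level went from 0.641 to 0.497 in 41_AlphaONT, from 0.586 to 0.476 in 45_AlphaOFFT and from 0.424 to 0.400 in 16_ooDS_DV. These differences were not tested.

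**Figure D2:**
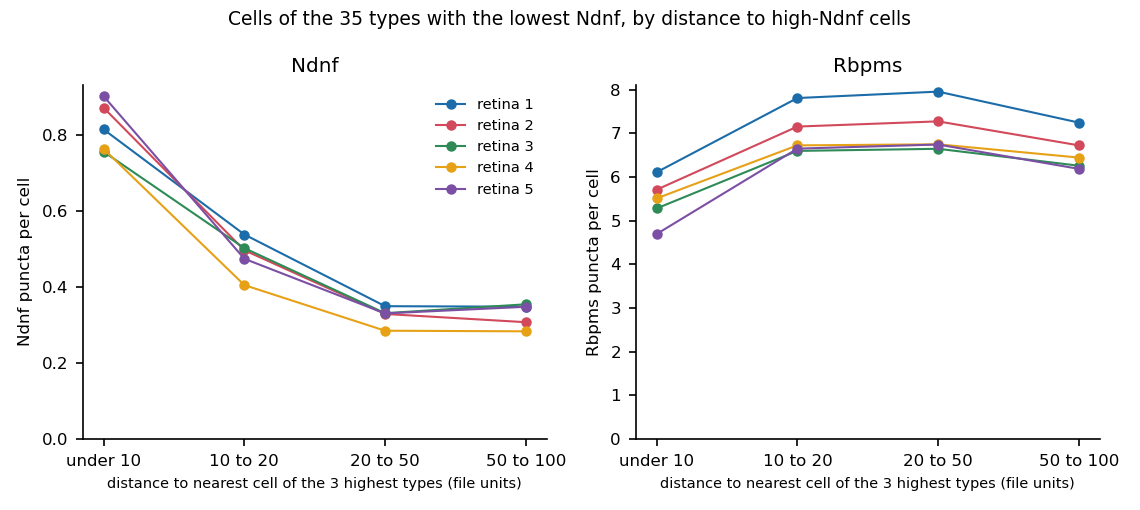
Ndnf (left) and Rbpms (right) puncta per cell in the 35 types outside the 10 highest, by distance to the nearest cell of 22_M5, 31_M2 or 43_AlphaONS in the file's position units; each line is 1 retina. Ndnf lies at 0.755 to 0.901 under 10 units and at 0.285 to 0.349 at 20 to 50 units, while Rbpms is lower in the nearest cells.

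Over all RGCs, with the retina as a block, Ndnf was not called along any axis of the retina. Sums of the outer cells (scaled radius above 0.5) were compared with those of the inner cells, and likewise either side of 0 on X and Y, in edgeR. Ndnf stood at 0.931 ± 0.039 puncta per cell in the periphery and 0.962 ± 0.091 in the centre, a log2 fold change of -0.06 ± 0.04 (SE, adjusted p = 0.269). In that comparison 20 of 300 genes (6.67%) were called. Along Y it stood at 0.923 ± 0.072 above 0 and 0.939 ± 0.050 below, -0.04 ± 0.05 (adjusted p = 0.758), with 0 of 300 genes called (0.0%).

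Along X the levels were 0.982 ± 0.069 above 0 and 0.887 ± 0.062 below, 0.09 ± 0.05 (adjusted p = 0.307, with 30 of 300 genes, 10.0%, called). Retinas 1 to 4 were higher above 0 and retina 5 was lower. With the section as a block Ndnf was called (0.20 ± 0.05, adjusted p = 0.0087), but sections of a retina are not separate replicates. Without retina 5, left aside after its values were seen, the value was 0.15 ± 0.03 with an adjusted p of 0.018. When the types were weighted alike on either side it was -0.04 ± 0.04 (limma, adjusted p = 0.579), the opposite direction.

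Within types, 07_Novel and 08_Novel had less Ndnf towards the periphery. For 08_Novel the level per 1000 panel puncta was 10.1, 9.40, 7.95, 8.16 and 7.39 in the periphery of retinas 1 to 5, and 11.0, 11.4, 9.56, 10.9 and 9.29 in the centre. Each retina was lower in the periphery, although the ranges overlap between retinas. The log2 fold change was -0.27 ± 0.06 (edgeR, adjusted p = 0.012 over all type-gene pairs), at 2.89 ± 0.54 puncta per cell in the periphery and 3.43 ± 0.44 in the centre. For 07_Novel the peripheral levels were 13.0, 12.1, 10.5, 11.0 and 10.1 per 1000 and the central ones 13.8, 13.5, 12.5, 13.6 and 14.4. It was again lower in all 5, at -0.25 ± 0.06 (adjusted p = 0.045), with 3.29 ± 0.52 puncta per cell in the periphery and 4.21 ± 0.58 in the centre.

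These were the calls for Ndnf among 40 types tested on the radial axis, 2 lower and 0 higher, where 2.22% of all type-gene pairs were called. Of the 40, 27 had a negative log2 fold change and 13 a positive one, with a median of -0.06. Both calls were lost without retina 2, retina 4 or retina 5 (adjusted p 0.080 to 0.128 for 08_Novel and 0.077 to 0.188 for 07_Novel), with log2 fold changes of -0.26 to -0.23 and -0.28 to -0.20. The call for 07_Novel was also lost without retina 3 (-0.24, adjusted p = 0.051). Without cells rich in glial and vascular transcripts the values were -0.27 and -0.25, both called. For 22_M5 the level per 1000 was 27.3, 27.0, 21.6, 29.5 and 23.1 in the periphery and 29.6, 31.4, 23.8, 33.2 and 29.4 in the centre. It was lower in the periphery in 5 of 5 retinas and did not pass (-0.20 ± 0.07, adjusted p = 0.164). For 31_M2 the value was 0.03 ± 0.06 and for 43_AlphaONS -0.12 ± 0.06, neither past the threshold.

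The other call for position was in the transient OFF alpha cells along X, where Ndnf was higher above 0. In 45_AlphaOFFT the level per 1000 puncta was 1.79, 1.58, 1.71, 0.979 and 1.84 above 0 in retinas 1 to 5 and 1.23, 0.795, 0.626, 0.747 and 1.56 below. Every retina was higher above 0, by 0.66 ± 0.14 on the log2 scale (edgeR, adjusted p = 0.0077), at 0.716 ± 0.18 and 0.433 ± 0.18 puncta per cell. It was the 1 call among 43 types tested along X, where 0.296% of type-gene pairs were called. The call was lost without retina 1, 2 or 3 (adjusted p 0.112, 0.197 and 0.075, log2 fold changes 0.55 to 0.70) and with DESeq2 (adjusted p = 0.170). A level this low is in the range of the nearby-cell difference above, and its part here was not tested.

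Along Y no type was called in the 5 retinas (0 of 42 in edgeR, against 0.452% of all type-gene pairs), with 5 types at an unadjusted p under 0.05. In 12_ooDS_NT the level per 1000 puncta was 3.97, 3.34, 4.10, 3.35 and 5.32 above 0 in retinas 1 to 5 and 5.80, 6.11, 4.88, 6.95 and 4.23 below. Retinas 1 to 4 were lower above 0 and retina 5 was higher. With all retinas the log2 fold change was -0.57 ± 0.17 (adjusted p = 0.269), and without retina 5 -0.76 ± 0.11 (adjusted p = 0.017). Each of the other retinas was left out in turn as well, and then no type was called.

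Retina 5 was singled out after its values were seen, so values without it describe the other 4 retinas and are no independent evidence of a direction. Without it 4 types passed the threshold, all lower above 0 along Y, where 2.31% of type-gene pairs passed. Besides 12_ooDS_NT these were 42_AlphaOFFS (-0.41 ± 0.11, adjusted p = 0.038), 09_Tbr1_Novel (-0.36 ± 0.10, adjusted p = 0.038) and 21_Tbr1_S2 (-0.68 ± 0.15, adjusted p = 0.045). With all 5 retinas their values were -0.21 ± 0.16, -0.32 ± 0.10 and -0.44 ± 0.20, with adjusted p of 0.659, 0.210 and 0.416. In 21_Tbr1_S2 retina 3 was also higher above 0 (0.11). In 31_M2 the order was the other way round. It held 25.2, 26.5, 23.5, 26.7 and 20.3 Ndnf per 1000 above 0 and 21.9, 21.6, 22.5, 23.2 and 25.8 below, higher above 0 in retinas 1 to 4 and lower in retina 5, and was not called (0.21 ± 0.07 without retina 5, adjusted p = 0.158).

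**Figure D3:**
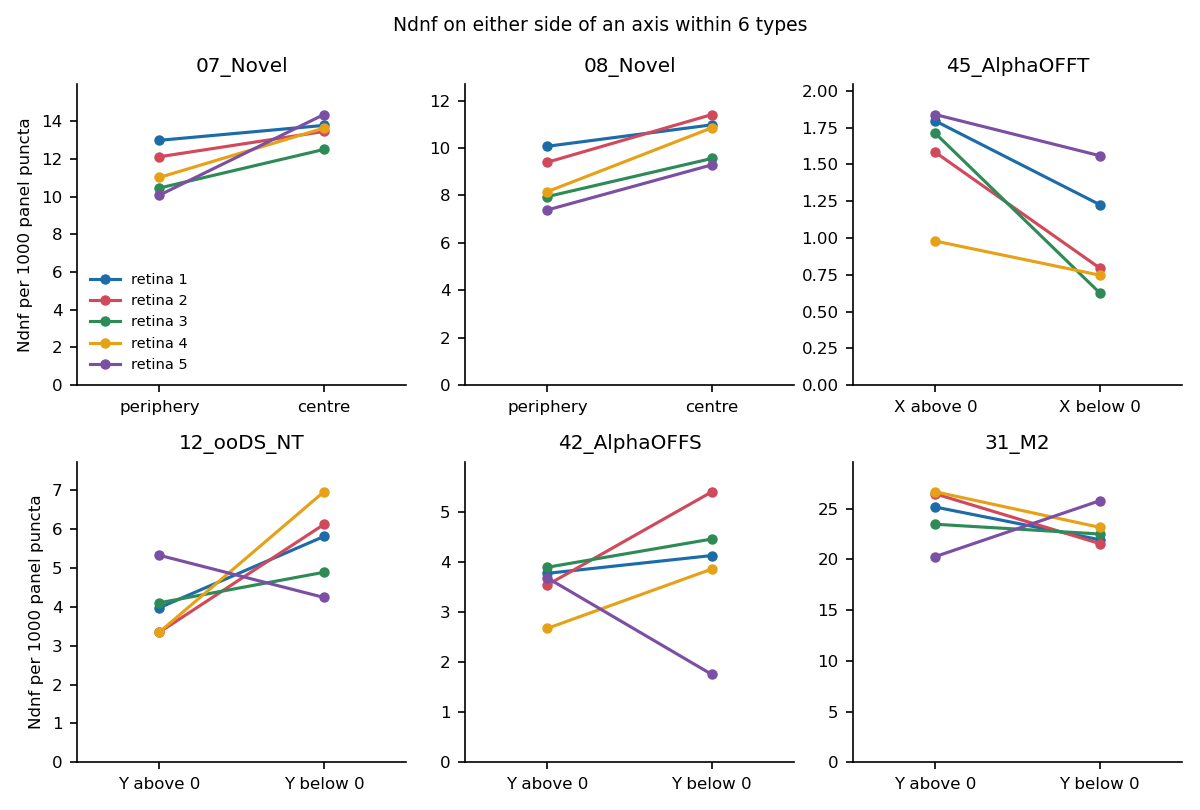
Ndnf per 1000 panel puncta on either side of an axis within 6 types, with 1 line per retina; the upper row shows periphery against centre in 07_Novel and 08_Novel and X above against below 0 in 45_AlphaOFFT, the lower row Y above against below 0. Within each panel of the upper row all 5 lines slope the same way, and retina 5 slopes against the other retinas in each panel of the lower row.

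Over types, Prkcq, Eomes, Prph and Ctxn3 had the patterns most like that of Ndnf. The measure was Pearson's r over the 45 types of log2(puncta per 1000 + 0.1), a description over types that share libraries and depth. The 6 highest were Prkcq, a protein kinase C gene (0.83), Eomes, a T-box transcription factor gene needed for ipRGCs (0.81), Prph, the intermediate filament gene peripherin (0.80), Ctxn3, encoding the small membrane protein cortexin 3 (0.80), Opn4 (0.74) and Atp2b4, a plasma membrane calcium pump gene (0.71). The order moved with the measure: Opn4, at rank 5, had rank 8 with a pseudocount of 1 and rank 7 without the 3 highest types, and Eomes, at rank 2, had rank 9 by Spearman's rho. Their own peaks lay elsewhere in part. Prkcq was highest in 43_AlphaONS, Eomes in 33_M1, Prph and Atp2b4 in 07_Novel, Ctxn3 in 22_M5 and Opn4 in 40_M1dup. The 3 lowest were Gria3, an AMPA receptor subunit gene (-0.62), Pax6, an eye transcription factor gene (-0.65), and Grin2b, an NMDA receptor subunit gene (-0.65).

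Among the other neurotrophic and growth factor genes on the panel, Igf1 (insulin-like growth factor 1) stood nearest to Ndnf over types, at 0.66 and rank 8. The binding protein genes Igfbp5, Igfbp2, Igfbp7 and Igfbp4 had 0.42, 0.40, 0.33 and 0.25, Fgf1 had 0.41, and Vgf, a neurotrophin-inducible secreted factor, had -0.10. Ndnf stands on the list of horizontal cell markers that was used here. Of its other members on the panel Onecut2 had 0.44, Onecut1 0.42, Calb1 0.19 and Lhx1 -0.11.

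RGCs with at least 1 Ndnf punctum were then compared with RGCs without any, with Ndnf itself left out. Ndnf-positive cells were deeper, with a median of 330.4 ± 16.4 puncta against 288.4 ± 15.2 in Ndnf-negative cells, and larger, with volumes of 646.6 ± 48.7 and 575.9 ± 39.6. Over all RGCs 213 of 299 genes (71.2%) were called in edgeR, 105 higher (35.1%) and 108 lower (36.1%), so a call alone says little about a gene here. Small changes were also called, and their direction is not secure, since on simulated data this comparison called unchanged genes too often. The mix of types differs between the sides, and 21056 of the positive cells lie at the limit with 1 punctum.

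The 8 largest increases included 4 genes of the ipRGC list, Tbx20, Prkcq, Opn4 and Eomes. Tbx20, a T-box transcription factor gene, stood at 2.79 ± 0.23 per 1000 puncta in Ndnf-positive and 0.346 ± 0.024 in Ndnf-negative cells (log2 fold change 2.99 ± 0.03, adjusted p = 3.4e-12). Prkcq followed at 2.60 ± 0.07, Opn4 at 2.60 ± 0.05, Prph at 2.34 ± 0.07, Ctxn3 at 1.98 ± 0.06 and Eomes at 1.88 ± 0.03. Spp1, the matrix protein gene osteopontin, was higher by 1.37 ± 0.03, at 7.69 ± 0.70 against 2.93 ± 0.32 per 1000. Gsg1, from the bipolar marker list, rose by 1.30 ± 0.21 from a low level (0.189 ± 0.099 in Ndnf-positive and 0.067 ± 0.018 in Ndnf-negative cells).

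The largest decreases were smaller than 1 on the log2 scale. Penk, the opioid precursor gene, stood at 2.73 ± 0.13 per 1000 in Ndnf-positive and 5.03 ± 0.21 in Ndnf-negative cells (-0.91 ± 0.03, adjusted p = 2.7e-08). The transcription factor genes Zic1 (-0.90 ± 0.05), Pou4f3 (-0.82 ± 0.03) and Foxp2 (-0.71 ± 0.04) fell too. So did Ppp1r17, a phosphatase inhibitor gene (-0.81 ± 0.02), the metalloprotease gene Mmp9 (-0.73 ± 0.03), and Lypd1, which modulates nicotinic receptors (-0.73 ± 0.04). Each of these 15 genes changed the same way in all 5 retinas, which the rule for naming them required.

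**Figure D4:**
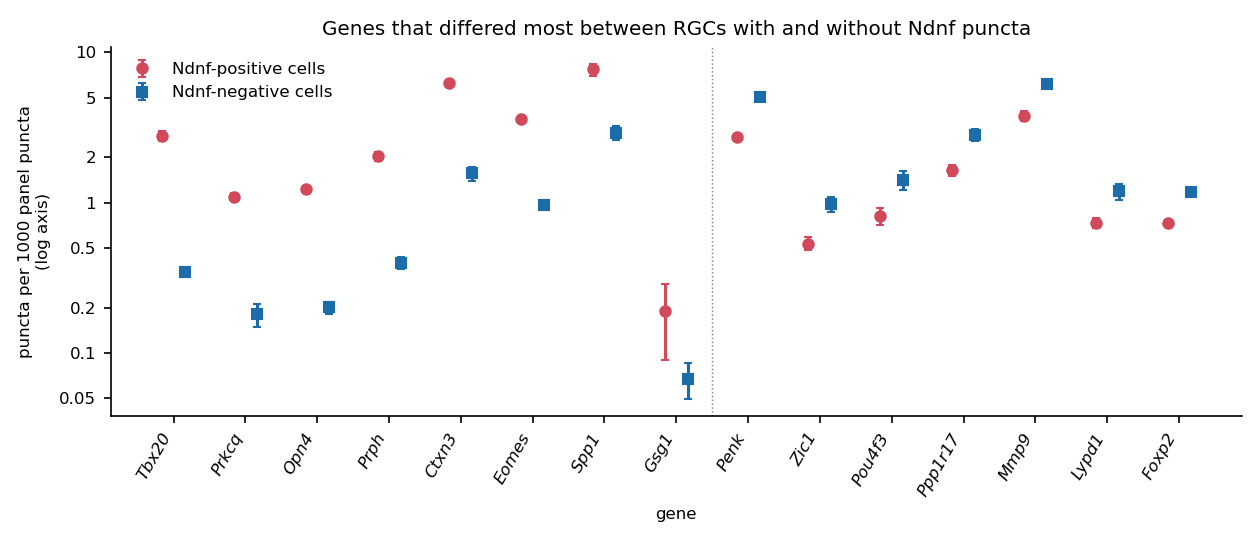
Puncta per 1000 panel puncta on a log axis for 15 of the genes with the largest changes between Ndnf-positive cells (circles) and Ndnf-negative cells (squares) over all RGCs, as mean and SD of 5 retinas. Tbx20 stands at 2.79 against 0.346 and Penk at 2.73 against 5.03; Gsg1 has the widest error.

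By list, 4 of the 7 other neurotrophic and growth factor genes tested were higher in Ndnf-positive RGCs and 1 was lower, against the 35.1% and 36.1% of all genes. Igf1 stood at 5.74 ± 0.48 per 1000 in Ndnf-positive and 2.66 ± 0.14 in Ndnf-negative cells (1.09 ± 0.03). Igfbp2 was higher by 0.95 ± 0.06, Fgf1 by 0.38 ± 0.02 and Igfbp5 by 0.10 ± 0.04, and Vgf was lower (-0.18 ± 0.02). The values of Igfbp5 and Vgf are among the small ones whose direction is not secure. Igfbp4 and Igfbp7 had 0.01 ± 0.06 and 0.03 ± 0.07 and did not pass. The list's median log2 fold change was 0.10, and that of all genes was -0.0035.

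Of the 8 secreted and matrix genes 3 were higher (Spp1, Coch and Nell1) and 2 lower (Mmp9 and Serpine2), with a median of -0.02. Over all genes 35.1% were higher and 36.1% lower, the base for each list here. The counts of secreted and matrix genes do not set that list apart from it. Of the 6 ipRGC genes 5 were higher, and Irx3, a homeobox gene, was lower (-0.13 ± 0.04), with a median of 2.24. All 4 other horizontal cell markers were higher, Lhx1 by 0.88 ± 0.18, Onecut1 by 0.31 ± 0.02, Onecut2 by 0.30 ± 0.03 and Calb1 by 0.17 ± 0.02. Within types Onecut2 was called in 0 of 37, Onecut1 higher in 7 and lower in 5, and Calb1 higher in 13 and lower in 4. Lhx1 was tested in only 4 types, higher in 3 and lower in 0. The values of Nell1 (0.16 ± 0.02), Irx3 and Calb1 are likewise small, and their direction is not secure. Lhx1, which adult RGCs are not known for, stood at only 0.0439 ± 0.014 per 1000 in Ndnf-positive and 0.0228 ± 0.0071 in Ndnf-negative cells. Of 14 bipolar markers 11 were higher and 1 lower (median 0.53), and of 15 amacrine markers 0 were higher and 6 lower. Within single types the bipolar markers did not repeat this. Their median was -0.75 in 31_M2, -0.70 in 07_Novel and -0.34 in 08_Novel, against -0.23, -0.08 and -0.11 for all genes. It was -0.06 in 12_ooDS_NT and 0.19 in 42_AlphaOFFS, against -0.04 and 0.0017. In each of these types at most 1 bipolar marker was called higher. The part of the bipolar and amacrine lists in the result was not tested.

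Within types many of the same genes went with Ndnf. In 37 types with enough cells on both sides, 2195 of 10126 type-gene pairs (21.7%) were called, 1143 higher and 1052 lower. Higher in the most types were Ctxn3 (28 of 37 types), Spp1 (25 of 37), Tbx20 (25 of 36), Opn4 (24 of 26), Prph (24 of 37), Eomes (22 of 37), Atp2b4 (21 of 37) and Prkcq (20 of 34). Of these Spp1 and Atp2b4 were each lower in 1 type, and the other 6 in none. A gene was tested only in types where it passed the filter on low counts. High counts in the Ndnf-positive sums alone can be enough for that. For Opn4, 24 of 26 is therefore not a share of all 37 types. In cells at least 20 units from any cell of the 3 highest types, Ctxn3 was called higher in 18 of 34 types, Spp1 in 17 of 34, Tbx20 in 22 of 33, Opn4 in 11 of 21, Prph in 15 of 33 and Eomes in 17 of 34. After thinning to 100 puncta, Ctxn3 was called higher in 9 of 24 types and Opn4 in 7 of 13.

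Among the genes lower in the most types were Gabra2, a GABA receptor subunit gene (16 of 37, higher in 0), Rbpms (16 of 37, higher in 3), Hpcal1, a neuronal calcium sensor gene (13, higher in 0), and Kcnab2, a potassium channel subunit gene (13, higher in 2). Kcna2, another potassium channel gene, was lower in 12 types and higher in 5. Among the growth factor genes Igf1 was higher in 19 of 37 types and lower in 4, Fgf1 higher in 10 and lower in 9, and Vgf higher in 4 and lower in 11. Igfbp2, higher over all RGCs, was called higher in only 2 of 36 types and lower in 1. Igfbp5 was higher in 2 and lower in 4, Igfbp7 higher in 2 and lower in 5, and Igfbp4 higher in 0 and lower in 2.

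Of the 3 types with the most Ndnf, 31_M2 alone had enough Ndnf-negative cells to be compared, in 4 retinas. Retina 3 had under 50 such cells and did not enter the fit. There 173 of 279 genes (62.0%) were called. Opn4 stood at 6.73, 6.75, 6.22, 7.01 and 6.21 per 1000 in Ndnf-positive cells of retinas 1 to 5 and at 1.45, 1.31, 1.52, 1.67 and 0.763 in Ndnf-negative cells (2.52 ± 0.19, adjusted p = 2.3e-12). The groups did not overlap, retina 3 included. Tbx20 (2.89 ± 0.18), Igf1 (2.69 ± 0.17), Prkcq (2.59 ± 0.23), Eomes (2.28 ± 0.19), Ctxn3 (2.14 ± 0.13), Prph (2.04 ± 0.17) and Qpct, encoding glutaminyl cyclase (2.03 ± 0.24), were also higher.

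Lower in Ndnf-positive 31_M2 cells were markers of glia and vessels. Pax2, an astrocyte marker, stood at 0.491, 1.04, 1.01, 0.844 and 0.640 per 1000 in Ndnf-positive and 5.35, 11.5, 8.66, 7.24 and 7.32 in Ndnf-negative cells (-3.23 ± 0.17). Cd9 (-3.32 ± 0.15), the pericyte markers Pdgfrb (-3.27 ± 0.37) and Cspg4 (-3.23 ± 0.40), the microglial gene Aif1 (-3.01 ± 0.32), Zic1 (-2.97 ± 0.23), Tgfb2 (-2.96 ± 0.17) and the glial glutamate transporter gene Slc1a3 (-2.93 ± 0.18) were lower as well. The 5 Müller glia markers together stood at 7.78 per 1000 (6.42 to 8.88 over retinas) in the 1686 Ndnf-positive and 35.2 (28.8 to 43.3) in the 316 Ndnf-negative cells. The 7 RGC markers stood at 68.7 and 49.9. In 07_Novel, which also held many cells rich in glial and vascular transcripts, 149 of 282 genes (52.8%) were called, and 58 of these calls were made without those cells. In 31_M2, once cells with 4% or more of glial and vascular puncta were left out, too few Ndnf-negative cells remained for a comparison.

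In 12_ooDS_NT, Ndnf split the cells along other genes. This type was singled out after its values were seen, because its Ndnf-positive cells (2220) and Ndnf-negative cells (2236) are about equal in number and few of its cells carry glial transcripts. There 122 of 289 genes (42.2%) were called, 57 higher and 65 lower. Tmem215, a transmembrane protein gene, stood at 1.15, 1.16, 1.16, 0.977 and 1.25 per 1000 in Ndnf-positive cells of retinas 1 to 5, against 3.38, 3.36, 2.72, 3.55 and 3.81 in Ndnf-negative cells. The groups did not overlap, and the log2 fold change was -1.48 ± 0.07 (adjusted p = 1.2e-16).

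Lpl, the lipoprotein lipase gene, stood at 3.81, 3.08, 2.96, 3.49 and 3.42 per 1000 in Ndnf-positive and 2.17, 1.79, 1.78, 1.98 and 2.37 in Ndnf-negative cells (0.85 ± 0.06). Nell1, encoding a secreted protein with EGF-like domains, stood at 12.2 ± 0.67 and 8.43 ± 0.77 (0.63 ± 0.04). Neither gene overlapped between the groups. Also higher were Ccn1, a matricellular gene (0.91 ± 0.20), Cnr1, the cannabinoid receptor gene (0.50 ± 0.05), and Vgf (0.48 ± 0.05). Tbx20 was higher in 4 of 5 retinas (0.72 ± 0.19, adjusted p = 0.0045), a call that was lost away from the 3 highest types (0.50 ± 0.20, adjusted p = 0.092) and without retina 5 (0.65 ± 0.22, adjusted p = 0.051).

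Lower beside Tmem215 were Slc17a8, a vesicular glutamate transporter gene (-0.91 ± 0.23), Kcnd2, an A-type potassium channel gene (-0.90 ± 0.14), Cacna1i, a T-type calcium channel gene (-0.87 ± 0.07), Lrrtm1, a synaptic adhesion gene (-0.81 ± 0.13), and Gabrb1, a GABA receptor subunit gene (-0.81 ± 0.07). Npnt, the matrix gene nephronectin (-0.86 ± 0.21), and Penk (-0.69 ± 0.09) were lower too. Of the 122 calls, 116 were also made without cells rich in glial and vascular transcripts, 108 away from the 3 highest types and 61 after thinning to 100 puncta. Among those lost after thinning were Ccn1 (0.68 ± 0.38, edgeR adjusted p = 0.240) and Lrrtm1 (-0.54 ± 0.23, adjusted p = 0.093). Slc17a8 and Npnt did not enter the comparison after thinning. Müller glia markers stood at 4.45 per 1000 in Ndnf-positive and 5.37 in Ndnf-negative cells, with overlapping ranges.

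Tmem215, Kcnd2, Lpl and Nell1 stood at levels that went one way over classes of cells with more Ndnf puncta. Cells with 0 Ndnf puncta had 3.37 ± 0.40 Tmem215 per 1000, those with 1 to 2 had 1.63 ± 0.26, those with 3 to 5 had 0.656 ± 0.19 and those with 6 or more had 0.571 ± 0.36. Lpl stood at 2.02 ± 0.25, 2.75 ± 0.30, 3.48 ± 0.48 and 4.76 ± 0.50 over the same classes, and Nell1 at 8.43 ± 0.77, 10.9 ± 0.71, 12.8 ± 0.91 and 14.8 ± 0.90. Kcnd2 stood at 0.975 ± 0.24, 0.557 ± 0.12, 0.454 ± 0.17 and 0.310 ± 0.087. The last 2 classes of Tmem215 did not differ beyond their spread, nor did neighbouring classes of Kcnd2 among cells with Ndnf. Npnt went one way as well, from 0.240 ± 0.016 without Ndnf to 0.080 ± 0.057 at 6 or more puncta. Tbx20 and Slc17a8 did not go one way, with Tbx20 at 0.264 ± 0.046, 0.477 ± 0.24, 0.517 ± 0.17 and 0.401 ± 0.22 per 1000 over the classes. The classes held 2236, 1224, 599 and 397 cells, and since these genes were picked from the comparison of the same cells, the steps are a description.

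**Figure D5:**
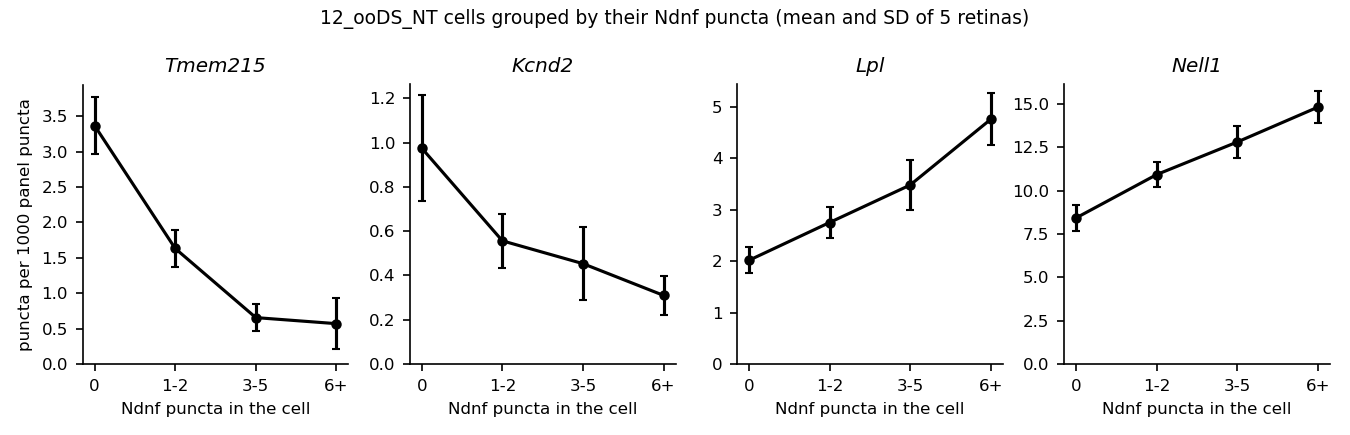
Puncta per 1000 panel puncta of Tmem215, Kcnd2, Lpl and Nell1 in 12_ooDS_NT cells grouped by their number of Ndnf puncta, as mean and SD of 5 retinas. Tmem215 and Kcnd2 are highest in cells without Ndnf (3.37 and 0.975), and Lpl and Nell1 in cells with 6 or more puncta (4.76 and 14.8).

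Of 37 types tested, Tmem215 was higher with Ndnf in 8 and lower in 2, which were 12_ooDS_NT and 25_Novel. Over all genes 1143 of 10126 type-gene pairs were higher and 1052 lower. In 25_Novel only 3 retinas had enough cells for the fit (-0.31 ± 0.11, edgeR adjusted p = 0.047). Counted over all 5 retinas, Tmem215 was lower in 3 there. In 07_Novel it stood lower in 5 of 5 retinas and did not pass (-0.64 ± 0.24, adjusted p = 0.052). The same held in 36_Novel (-0.18 ± 0.08, adjusted p = 0.121). In 16_ooDS_DV it stood at 1.24 ± 0.73 per 1000 in Ndnf-positive and 0.373 ± 0.045 in Ndnf-negative cells (1.42 ± 0.25, adjusted p = 7.5e-04, higher in 4 of 5 retinas). In 10_Novel it stood at 1.55 ± 0.82 and 0.388 ± 0.096 (1.66 ± 0.20, higher in 5 of 5). The difference between types was not tested.

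Ndnf and its companions in 12_ooDS_NT could also be set against position. Along Y, Lpl stood at 2.80, 2.22, 2.16, 2.43 and 3.13 per 1000 above 0 and 3.45, 2.68, 2.79, 3.10 and 2.66 below in retinas 1 to 5, lower above 0 in retinas 1 to 4 and higher in retina 5, as for Ndnf. Its log2 fold change was -0.28 ± 0.10 (adjusted p = 0.332), and without retina 5 -0.39 ± 0.07 (adjusted p = 0.027), with the same limit as for Ndnf. Tmem215, with -0.19 ± 0.13 and -0.34 ± 0.09 without retina 5 (adjusted p = 0.632 and 0.106), did not pass, nor did Nell1 (-0.10 ± 0.04 and -0.11 ± 0.04, adjusted p = 0.412 and 0.221).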

How the data were processed

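The authors imaged 300 transcripts in 20 µm en face sections of wild-type mouse retina with Xenium. The table the authors deposited holds, per the file headers, whole puncta counts of each gene in each cell, with the type, retina, slide, section, volume and scaled position of each cell. Segmentation, cell filters and type assignment are not given in the sources used here, and types can rest on the panel genes. The 4 deposited samples are slide pairs that no label ties to retinas, so the replicate was the retina (n = 5).

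The gene and the lists were chosen with earlier results of these data known, and Ndnf in 22_M5 had been singled out after its values were seen. Counts were summed per retina and side (radius split at 0.5, X and Y at 0) or per retina and Ndnf class (at least 1 punctum against 0), within types only with 50 cells or more per sum in at least 3 retinas. They were fitted with edgeR 4.0.16 in R 4.3.3 (quasi-likelihood, TMM, filterByExpr, retina as a block, since both sides come from the same retina), with Benjamini-Hochberg adjustment over all genes, or all type-gene pairs, at 0.05. DESeq2 1.42.0 and limma 3.58.1 (same-mix comparison, pseudocount 0.01) were alternatives, beside other library sizes, filters, blocks, splits and gates, thinning to 100 puncta and leaving out each retina. Cells away from high-Ndnf cells and cells low in glial markers were alternatives chosen after seeing the data. Python 3.11.15 with pandas 2.3.3 did the rest. Fits were tested on simulated data, where most genes of each table were given a change. There the comparison of Ndnf-positive with Ndnf-negative cells over all RGCs also called unchanged genes, far more often than its threshold allows and all in one direction, by a small offset that the scaling had put on every gene. The direction of small changes in that comparison is therefore not secure.

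Named genes were Ndnf, the 6 most and 3 least like it over types (among genes with 2000 puncta or more), the 8 largest changes per direction with Ndnf over all RGCs (the same way in every retina, at least 100 puncta per side), the genes called in the most types, up to 8 calls per direction in the 3 highest types, and the neurotrophic and horizontal lists. A few genes that this rule names are not reported here. Genes within 12_ooDS_NT, 08_Novel and 42_AlphaOFFS were chosen after their values were seen. Retinas had a median depth of 285 to 326 puncta a cell, which leaves most genes near 0 in a single cell, so sums per retina were compared. Error terms are the SD between retinas or the SE of a fit. No sequence of Ndnf is given, since none was in the reference tables used here.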

Additional observations from a re-analysis of the deposited data

Results flagged for a closer look

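Retina 5 lay apart from the other 4 retinas in 4 of the 5 values below that were set off by Dixon's test, which was applied to 63 sets of 5 retinas and by chance flags about 1 set in 20. Along Y, Ndnf in 42_AlphaOFFS had a log2 difference of 1.07 in retina 5 and of -0.61 to -0.13 in the others. Along X, the difference over all RGCs was -0.17 in retina 5 and 0.09 to 0.19 in the others, in 43_AlphaONS -0.36 against -0.11 to -0.06, and in 12_ooDS_NT -0.91 against -0.09 to -0.02. In 14_ooDS_Cck the level of Ndnf was 0.463 puncta per cell in retina 3 and 0.315 to 0.356 in the others. What sets these retinas apart was not tested.

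Some types moved in opposite directions in all 5 retinas, and the difference between them was not tested. Along Y, Ndnf was lower above 0 in 09_Tbr1_Novel (log2 fold change -0.32 ± 0.10, SE) and higher in 13_Novel (0.27 ± 0.15) and 16_ooDS_DV (0.083 ± 0.086), of which none passed an adjusted p of 0.05 in edgeR. Along X, it was higher above 0 in 45_AlphaOFFT (0.66 ± 0.14) and 23_W3D2 (0.30 ± 0.18) and lower in 12_ooDS_NT (-0.20 ± 0.10), 24_Novel (-0.27 ± 0.15) and 43_AlphaONS (-0.13 ± 0.05), and 45_AlphaOFFT alone passed. Tmem215 was lower with Ndnf in 12_ooDS_NT (-1.48 ± 0.07) and higher in 10_Novel (1.66 ± 0.20).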

How the results depend on the processing

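Of the recomputed values of the comparisons, 89 kept their direction and their side of the threshold, or stayed within 1.5 times the count or 1 SD, 15 moved by more, 2 turned sign and 2 gained a call. Along Y over all RGCs, leaving out a retina gave -0.068 to 0.0093 on the log2 scale, with the sign turned without retina 4. Along X it gave 0.062 to 0.148, past the threshold without retina 5, and 0.20 (adjusted p = 0.0087) with the section as a block, while the same mix of types gave -0.045. The highest over the median type was 19.5-fold per cell, 18.5 to 23.1 without a retina and 7.71 for thinned detection shares, which cannot exceed 100%. Types called for Ndnf numbered 0 to 2 on the radial axis, 0 to 4 along Y and 0 to 1 along X without a retina. Without the replicate block, 0 types were called on the radial axis and 0 along X, and DESeq2 called 0 along X. Genes called with Ndnf over all RGCs numbered 213, and 201 to 213 without a retina and 123 with no replicate block. Within types 2195 pairs were called, 1629 to 2022 without a retina, 1378 at 2 or more puncta, 995 in 24 types after thinning and 829 with no replicate block. Of the 6 genes most like Ndnf, 5 were shared under each of 3 alternatives. Among single genes and types named, 721 values were unaltered in call and direction, 48 lost the call, 5 gained it and 1 was reversed (31_M2 on the radial axis without cells rich in glial markers, -0.015). Other causes were not tested.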

Other observations

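In 08_Novel and 42_AlphaOFFS, both chosen after their values were seen, Ndnf-positive cells differed from Ndnf-negative cells of the same type in further genes. In 08_Novel 101 of 281 genes (35.9%) were called in edgeR. Opn4 stood at 0.681 ± 0.096 per 1000 puncta in Ndnf-positive and 0.221 ± 0.079 in Ndnf-negative cells (log2 fold change 1.68 ± 0.18), and Ctxn3 at 12.8 ± 0.73 and 4.67 ± 0.80 (1.57 ± 0.07). Coch, the gene of the matrix protein cochlin, was higher by 1.19 ± 0.07, Prkcq by 1.08 ± 0.09 and Pcdh11x, a protocadherin gene, by 0.84 ± 0.05. Lower were Cbln4, a synapse organiser gene of the cerebellin family (-1.24 ± 0.18), the homeobox gene Irx3 (-0.68 ± 0.10), and Spon1, the secreted matrix gene spondin 1 (-0.66 ± 0.07). Rod markers moved with them, at 3.47 per 1000 (1.83 to 4.89 over retinas) in Ndnf-positive and 5.68 (3.74 to 8.65) in Ndnf-negative cells, and their part was not tested. Away from the 3 highest types 84 of the 101 calls were also made.

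In 42_AlphaOFFS 37 of 264 genes were called. Opn4 stood at 0.248 ± 0.083 per 1000 in Ndnf-positive and 0.0352 ± 0.035 in Ndnf-negative cells (2.89 ± 0.44), Prph at 1.16 ± 0.25 and 0.278 ± 0.085 (2.12 ± 0.21), and Calb1, the calcium buffer gene calbindin, at 4.23 ± 0.48 and 1.77 ± 0.12 (1.28 ± 0.08). Prkcq (1.69 ± 0.28), Eomes (1.39 ± 0.16) and Tbx20 (1.16 ± 0.38) were higher too. In Ndnf-negative cells Opn4 lay near the floor, at 0.0 to 0.0905 per 1000 over retinas. A gene this low can pass the filter on low counts through the Ndnf-positive cells alone. Opn4, Prkcq and Tbx20 did not enter the comparison after thinning. Gabrg1, a GABA receptor subunit gene, was lower, at 1.37 ± 0.17 and 2.54 ± 0.093 (-0.90 ± 0.09), and so was Zic1 (-1.01 ± 0.32), a call that was lost away from the 3 highest types (adjusted p = 0.059). Of the 37 calls 28 were also made there and 8 after thinning to 100 puncta.

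In 07_Novel 69 of 276 genes were called without cells rich in glial and vascular transcripts. There Ctxn3 was higher with Ndnf by 1.62 ± 0.10, Prph by 1.61 ± 0.10 and Opn4 by 1.12 ± 0.38, and Lmo2 (-2.30 ± 0.28), Igfbp7 (-2.13 ± 0.27) and the endothelial gene Cdh5 (-1.49 ± 0.40) were lower.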
